A study of Danio rerio with 24 samples.

Results

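Genes of the Wnt signaling pathway were followed in the liver of adult zebrafish (Danio rerio) exposed to mercuric chloride (HgCl2). A gene was included when its symbol in the array's probe annotation began with wnt, fzd, dvl, axin, ctnnb, tcf7, dkk, sfrp, gsk3 or frzb, or was lef1, lrp5, lrp6 or gbp. This rule found 37 genes with 47 probes among 5355 genes with a single symbol, and each gene was read from its probe with the highest mean intensity, so that 10 probes were set aside. No probe was found by this rule for lrp5 or lrp6, and 2 probes that carried such a symbol together with other symbols were not used here. The 37 genes comprised 8 Wnt ligands, 11 Frizzled receptors, 4 secreted inhibitors (dkk1b, frzb, sfrp2 and sfrp5), 2 dishevelled genes (dvl2 and dvl3a), 5 genes of the destruction complex or its regulation (axin1, axin2, gbp, gsk3ab and gsk3ba), 3 beta-catenin or beta-catenin partner genes (ctnnb1, ctnnb2 and ctnnbip1) and 4 DNA-binding factors (lef1, tcf7l1a, tcf7l1b and tcf7l2).

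Fish aged from 6 months to 1 year, obtained from a fish farm, were kept in water with HgCl2 at 200 μg/L or in water without it, and livers were taken after 8, 24, 48 or 96 h. There were 8 groups, HgCl2 and control at each of 4 times, with 3 arrays in each. Each array was hybridised with RNA of 4 pooled livers in Cy5 and with a common reference, RNA pooled from male and female wildtype fish, in Cy3. The sex of the pooled fish and the strain were not given in the sources used here, and dyes were not swapped.

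Wnt ligands are secreted proteins that bind Frizzled receptors together with the co-receptors Lrp5 and Lrp6. Without ligand, a destruction complex built on Axin lets Gsk3 phosphorylate beta-catenin, which is then degraded. With ligand, Dishevelled proteins take the signal to that complex, beta-catenin accumulates, and it switches on target genes together with Tcf and Lef factors. In the mammalian liver the pathway is best known for setting the gene expression of hepatocytes around the central vein and for its part in growth and regeneration.

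A spot was called above background when its median Cy5 intensity exceeded the median of its local background by 2 standard deviations of that background. By this rule 20 of the 37 genes (54.1%) were above background on all 24 arrays, against 45.3% of all genes with a single symbol and 43.0% of all probes. Another 16 genes passed on 12 to 23 arrays and wnt4 on 9. Both dvl2 and dvl3a passed on 24 arrays, as did 7 of 11 receptors, 3 of 5 destruction complex genes, 2 of 3 beta-catenin genes, 2 of 4 secreted inhibitors, 2 of 4 DNA-binding factors and 2 of 8 ligands. In Cy5 the ligands were thus the role with the smallest share of genes detected throughout. These counts are of Cy5, and a ratio also depends on Cy3. By the same rule Cy3 was above background on 2 (wnt4) to 22 (wnt11) of 24 arrays among the ligands, on 12 for axin2 and on 11 for dkk1b. Over all genes and arrays, 398 of 444 Cy5 readings (89.6%) were above background on HgCl2 arrays and 417 of 444 (93.9%) on control arrays. All probes gave 85.0% on HgCl2 arrays and 86.1% on control arrays.

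**Figure D1:**
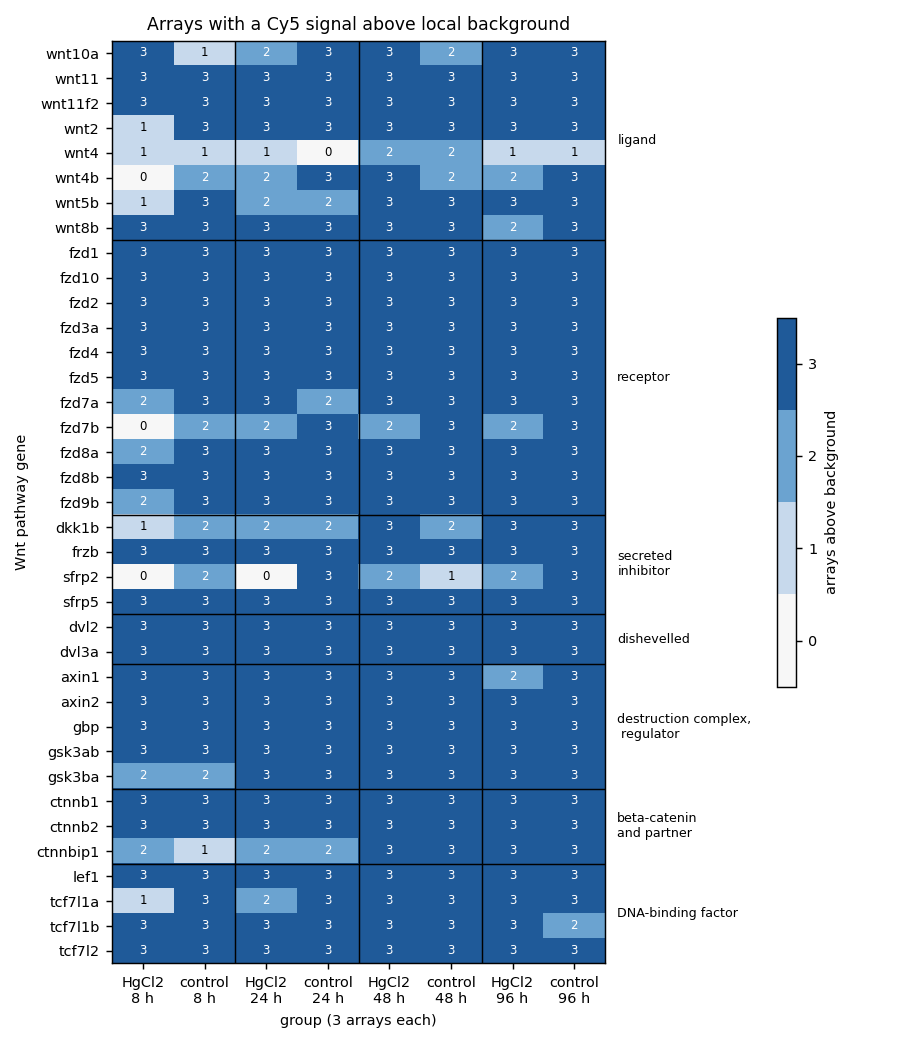
Number of arrays, 0 to 3, on which each of the 37 Wnt pathway genes (rows, ordered by role) had a Cy5 intensity above local background, for the 8 groups (columns, HgCl2 left of control at each time). Most cells hold 3 arrays, and the pale cells lie mainly among the ligands, fzd7b, dkk1b and sfrp2, and in the HgCl2 8 h column.

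The HgCl2 8 h group had the lowest share of all probes above background, 65.7% to 78.8% per array. On its 3 arrays 31, 29 and 27 of the 37 genes were above background, against 35, 36 and 29 genes on the 3 control arrays of that time. In that group wnt4b, fzd7b and sfrp2 were not above background on any of its 3 arrays, and each of them was on 2 of 3 control arrays. The same held for sfrp2 at 24 h, with 0 of 3 HgCl2 arrays and 3 of 3 control arrays above background, and in turn for wnt4 at 24 h, with 1 of 3 HgCl2 arrays and 0 of 3 control arrays above background. For these 4 genes the differences at those times are bounded by the background, and none was called (adjusted p between 0.16 and 0.97, limma). The median Cy5 background was 147, 183.5 and 149 on the HgCl2 8 h arrays. On the HgCl2 24 h arrays it was 155, 54 and 67, with 74.5%, 91.5% and 91.9% of all probes above background. No Wnt pathway spot was saturated.

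The paper's methods describe a common reference RNA for treated and control arrays, yet its channel differed between the 2 sets of arrays. Whether a single preparation served all arrays is not stated. For 24 of 24 arrays the array with the most similar Cy3 intensities had the same treatment. This likeness lay mainly within groups. The median correlation of Cy3 deviations was 0.34 in the same group, -0.02 for the same treatment in another group and -0.17 between treatments. By time, 12.5%, 1.88%, 0.67% and 13.7% of all probes were called in Cy3 at 8, 24, 48 and 96 h. Over 4 times 16.2% of all probes differed in Cy3 between HgCl2 and control arrays (adjusted p under 0.05, limma). Of the 37 genes 6 did so (16.2%), with tcf7l1b (1.04), fzd7a (1.57) and gbp (0.42) brighter and fzd1, fzd4 and fzd9b (-0.78) dimmer on HgCl2 arrays (log2 differences in Cy3). Treatment and the set of arrays therefore cannot be told apart in a single channel. Whether the Cy5 to Cy3 ratio removes such a difference between arrays was not tested. The Cy3 difference is given beside each gene that was called. Replicates differed by a median within-group standard deviation of 0.25 for the 37 genes and 0.28 for all probes, in log2 units of the normalized Cy5 to Cy3 ratio, so a difference at a single time had a median standard error of 0.20 and the average over 4 times 0.10.

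HgCl2 livers were set against control livers at each time in a limma model over 24 arrays, with adjusted p over 16340 probes and a threshold of 0.05. At 8 h no Wnt pathway gene was called higher or lower, where 0.624% of all probes were higher and 0.349% lower. There, 3 of 37 genes (8.11%) had an unadjusted p under 0.05, against 12.8% of all probes. At 24 h gsk3ab was higher and frzb and fzd1 were lower, which is 2.70% of the genes higher and 5.41% lower, beside 6.61% and 4.23% of all probes. At 48 h only gsk3ab was called, higher, where 5.29% of all probes were higher and 3.37% lower. At 96 h gbp was higher and dvl3a lower, where the shares of all probes were 7.48% higher and 5.42% lower.

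Averaged over the 4 times, with 12 HgCl2 and 12 control arrays matched by time, 4 genes were higher and 8 were lower. The 4 higher genes were gsk3ab, ctnnb1, fzd8a and fzd7b, and the 8 lower genes were frzb, fzd1, fzd10, fzd5, axin2, fzd4, dkk1b and sfrp5. The share of genes called, 32.4%, was close to the 31.5% of all probes called. By direction, 10.8% of the genes were higher where 17.7% of all probes were, and 21.6% were lower where 13.8% of all probes were. Of the 37 genes, 26 (70.3%) had a negative average difference, against 49.8% of all probes, and the median of the 37 genes was -0.12 against 0.00 for all probes. The split of calls moved with the scaling, with 1 higher and 8 lower in the authors' own value table and 5 higher and 5 lower in the Cy5 channel alone.

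**Figure D2:**
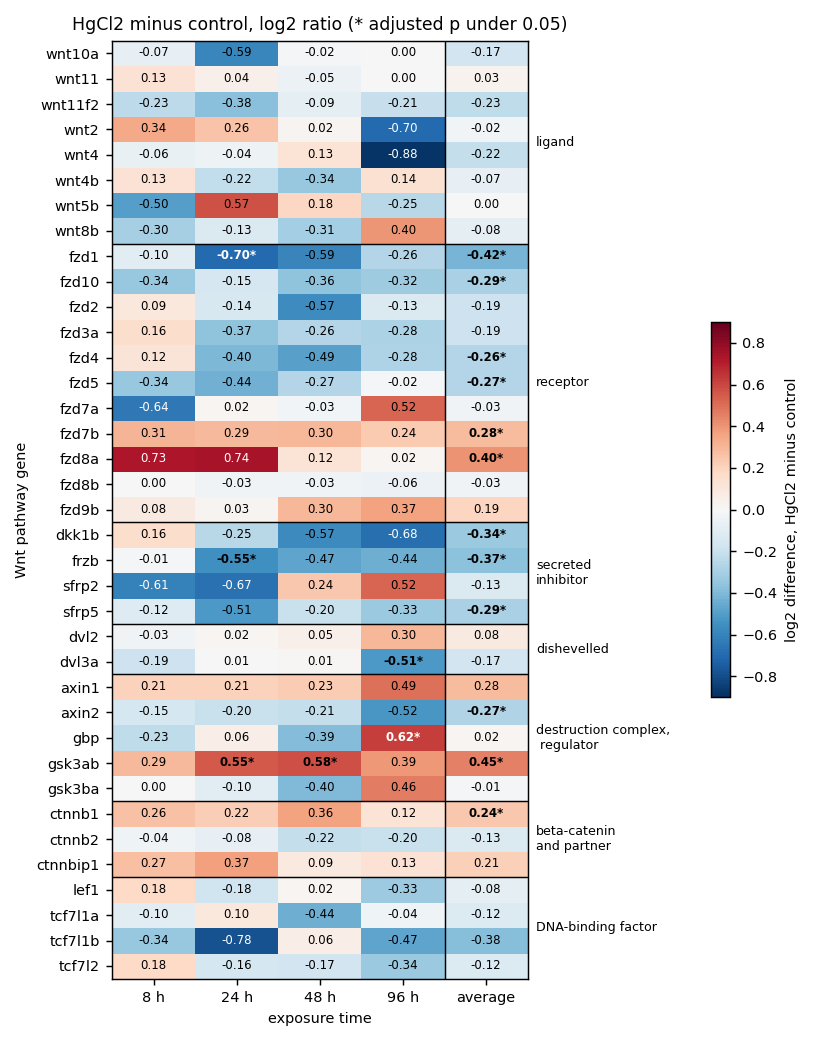
Log2 difference of the Cy5 to Cy3 ratio, HgCl2 minus control, for each of the 37 genes (rows, by role) at 8, 24, 48 and 96 h and for the average over the 4 times (columns), with blue for lower and red for higher in HgCl2 livers and an asterisk where the adjusted p was under 0.05. The average column holds 4 marked genes above 0 and 8 below it, and no cell is marked at 8 h.

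The sizes were small. Average differences ran from -0.42 for fzd1 to 0.45 for gsk3ab, and single-time differences from -0.88 for wnt4 to 0.74 for fzd8a, neither of them called at its time. Between 8 h and 96 h, 8 genes were below control at all 4 times and 7 above it (21.6% and 18.9% of the genes, against 17.5% and 20.6% of all probes). The 3 HgCl2 arrays and the 3 control arrays did not overlap for 4 genes at 8 h, 9 at 24 h, 13 at 48 h and 14 at 96 h. As shares of the 37 genes these are 10.8%, 24.3%, 35.1% and 37.8%, beside 17.9%, 27.8%, 29.7% and 36.5% of all probes. Of the non-overlapping genes, 2 were higher and 2 lower at 8 h, 2 higher and 7 lower at 24 h, 3 higher and 10 lower at 48 h, and 6 higher and 8 lower at 96 h. The shares of all probes by direction are not given here, so this split has no background to be read against.

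None of the 8 ligands was called at any time or in the average. Their average differences ran from -0.23 for wnt11f2 to 0.03 for wnt11, with 6 of 8 below 0. Of all probes, 49.8% were below 0 in the average and 31.5% were called. The brightest ligand probe was wnt11. Its Cy5 intensity had a median of 1221 (519 to 2578) over 24 arrays, at a median of 15.99 times its local background. Its log2 ratio had a lowest, median and highest value of -0.37, -0.09 and 0.14 on HgCl2 arrays and -0.36, -0.11 and 0.10 on control arrays, and these ranges nearly coincide. The average difference for wnt11 was 0.03 ± 0.07 (SE, adjusted p = 0.78, limma), the smallest standard error of the 37 genes. At the other end, wnt4 stood at a median of 1.94 times its background, and its average difference of -0.22 ± 0.27 (SE) had the largest standard error.

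Of the 11 Frizzled receptors, 4 were lower and 2 higher in the average, and 8 of 11 were below 0. Of all probes, 13.8% were lower, 17.7% higher and 49.8% below 0. The receptor with the largest fall was fzd1. Its log2 ratio was lowest at -0.89, median -0.35 and highest at -0.07 on HgCl2 arrays, against -0.40, 0.08 and 0.40 on control arrays, so that every HgCl2 array was below 0. At 24 h the 3 HgCl2 arrays gave -0.17, -0.89 and -0.25 and the 3 control arrays 0.32, 0.40 and 0.07, without overlap. The difference for fzd1 was -0.70 ± 0.20 at 24 h (SE, adjusted p = 0.030) and -0.42 ± 0.10 in the average (adjusted p = 0.0037, limma). Its reference channel was also lower on HgCl2 arrays, by a log2 difference of -0.48 in Cy3 (adjusted p = 0.023) and of -1.45 at 96 h, the only time at which fzd1 was called there. Without control 24 h replicate 1, control 24 h replicate 2 or HgCl2 24 h replicate 2 the 24 h call was lost, as it was without background correction, in the authors' value table and in the 6 arrays of that time alone, whereas the average kept its call whichever of the 24 arrays was removed.

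For the receptor fzd10 the HgCl2 arrays all lay below the control arrays at each of the 4 times. The share of all probes separated at all 4 times is not given here. At the single times 17.9%, 27.8%, 29.7% and 36.5% of all probes did not overlap, in either direction. At 8 h the fzd10 log2 ratio was -0.31, -0.45 and -0.54 on HgCl2 arrays against -0.13, 0.05 and -0.20 on control arrays. At 24 h it was -0.44, -0.27 and -0.28 on HgCl2 arrays against -0.23, -0.26 and -0.04 on control arrays. The gap at 24 h was narrow. At 48 h the values were -0.55, -0.24 and -0.38 on HgCl2 arrays against 0.21, -0.20 and -0.09 on control arrays, and at 96 h -0.64, -0.14 and -0.10 on HgCl2 arrays against 0.12, 0.00 and -0.05 on control arrays. No single time was called, with adjusted p between 0.16 and 0.61, and the average for fzd10 was -0.29 ± 0.08 (SE, adjusted p = 0.0069, limma). Beside this, Cy3 for fzd10 was 1.42 higher on HgCl2 arrays at 8 h (adjusted p = 0.0099) and 0.31 higher in the average (adjusted p = 0.22). The average call for fzd10 was lost in Cy5 alone and with the mean of all probes of the gene.

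For fzd5 the log2 ratio ranged from -0.34 to 0.28 (median -0.07) on HgCl2 arrays and from 0.00 to 0.71 (median 0.16) on control arrays. For fzd4 it ranged from -0.44 to 0.39 (median -0.20) on HgCl2 arrays and from -0.13 to 0.56 (median 0.02) on control arrays. Both receptors overlapped widely over the 24 arrays and were separated at some times, fzd5 at 24 h and 48 h and fzd4 at 48 h and 96 h. Their average differences were -0.27 ± 0.08 for fzd5 (SE, adjusted p = 0.020) and -0.26 ± 0.08 for fzd4 (adjusted p = 0.022, limma), and Cy3 differed by 0.33 for fzd5 (adjusted p = 0.15) and by -0.46 for fzd4 (adjusted p = 0.014). The fzd4 call remained under each of the 34 alternatives run for it, and that of fzd5 was lost in Cy5 alone and with the mean of all probes of the gene.

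Both receptors that were higher in the average came close to the threshold. The brightest receptor probe, fzd8a, had a log2 ratio of 0.39, 0.18 and -0.28 on HgCl2 arrays against -0.54, -0.40 and -0.94 on control arrays at 8 h. At 24 h fzd8a was at 0.77 and 0.34 on 2 HgCl2 arrays and at about 0 on the third, against -0.20, -0.50 and -0.42 on control arrays. Its groups did not overlap at 8 h or 24 h and overlapped at 48 h and 96 h, where the differences were 0.12 and 0.02. The average for fzd8a was 0.40 ± 0.15 (SE, adjusted p = 0.042) and that of fzd7b was 0.28 ± 0.11 (adjusted p = 0.047, limma). For each of these 2 genes there were 15 arrays whose removal, of a single array at a time, ended the call. Both calls were also lost without background correction, with plain subtraction of background, in the authors' value table and in Cy5 alone, that of fzd7b with median centring, and that of fzd8a with the replicate block and with the mean of all probes of the gene. The fzd7b probe was above background on 6 of 12 HgCl2 arrays (0 of 3 at 8 h) and on 11 of 12 control arrays. The Cy3 difference was -0.30 for fzd8a and -0.52 for fzd7b (adjusted p = 0.12 each).

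The remaining receptors, fzd2, fzd3a, fzd7a, fzd8b and fzd9b, were not called at any time on the probes used. Their average differences ran from -0.19 for fzd3a to 0.19 for fzd9b. For fzd7a both channels were brighter on HgCl2 arrays. Its Cy3 was 1.34, 1.69 and 2.42 higher at 8, 48 and 96 h (adjusted p = 0.017, 0.039 and 1.4e-04, limma). Its mean Cy5 intensity before normalization at 96 h was 2750 on HgCl2 arrays and 512 on control arrays, and its average difference in the ratio was -0.03. For fzd3a the log2 ratio ranged from -0.46 to 0.28 (median -0.12) on HgCl2 arrays and from -0.11 to 0.44 (median 0.09) on control arrays. Its average difference was -0.19 ± 0.08 (SE, adjusted p = 0.075, limma). Its HgCl2 arrays lay above the control arrays at 8 h, with 0.14, 0.17 and 0.28 against 0.00, 0.01 and 0.11, and below them at 48 h, with -0.18, -0.06 and -0.24 against 0.15, 0.16 and 0.00. The change of that difference over time was not called for fzd3a (adjusted p = 0.50).

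**Figure D3:**
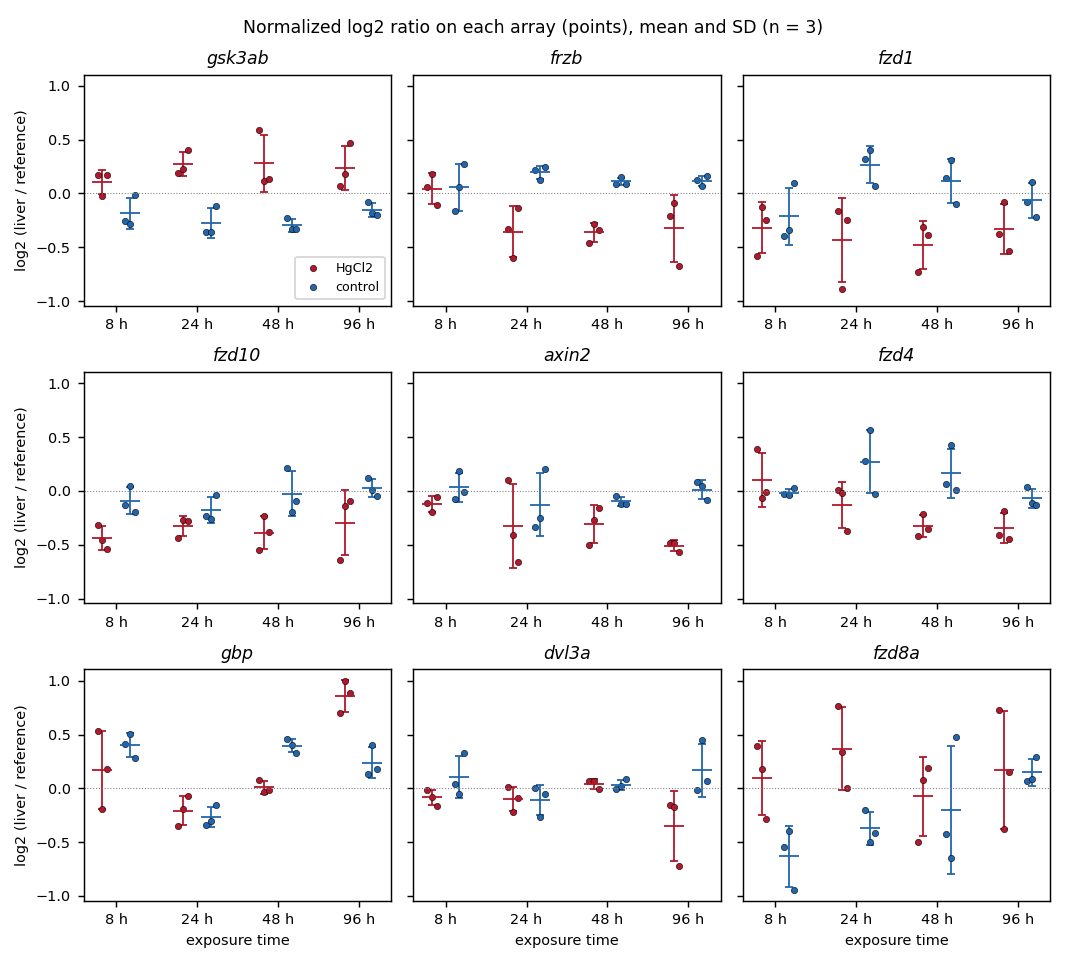
Normalized log2 ratio of liver (Cy5) to common reference (Cy3) on each array for 9 genes against exposure time, with points for the 3 arrays of a group, a bar for the mean and whiskers for the standard deviation (n = 3), HgCl2 in red left of control in blue. The HgCl2 points of gsk3ab lie above control and those of fzd10 below control at each time (except at 8 h, where the gsk3ab groups meet at -0.02), and gbp changes side between 48 h and 96 h.

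All 4 secreted inhibitors had negative average differences, against 49.8% of all probes, and 3 were called lower, against 13.8% of all probes. These proteins hold Wnt signaling back outside the cell, frzb and the sfrp proteins by binding Wnt ligands and dkk1b by binding the Lrp co-receptors. For frzb the log2 ratio at 24 h was -0.33, -0.60 and -0.13 on HgCl2 arrays against 0.22, 0.13 and 0.25 on control arrays. At 48 h frzb was at -0.46, -0.28 and -0.34 on HgCl2 arrays against 0.09, 0.15 and 0.09 on control arrays. At 96 h it was at -0.21, -0.09 and -0.67 on HgCl2 arrays against 0.12, 0.07 and 0.16 on control arrays. The groups thus did not overlap from 24 h on, and the control arrays were tightly spaced.

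The frzb difference was -0.55 ± 0.16 at 24 h (SE, adjusted p = 0.030), -0.01 at 8 h and -0.37 ± 0.08 in the average (adjusted p = 0.0014, limma). Its Cy3 intensity was higher on HgCl2 arrays by 1.15 at 8 h (adjusted p = 0.0065) and by 0.28 in the average (adjusted p = 0.13). In the Cy5 channel alone the average difference for frzb was -0.15 and was not called (adjusted p = 0.36). The 24 h call for frzb was lost without HgCl2 24 h replicate 2 or any of the 3 control 24 h arrays, and also without background correction, in the authors' value table, in Cy5 alone and in the 6 arrays of that time alone.

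For dkk1b the log2 ratio ranged from -0.94 to 0.35 (median -0.31) on HgCl2 arrays and from -0.33 to 0.36 (median 0.08) on control arrays, with an average difference of -0.34 ± 0.11 (SE, adjusted p = 0.028, limma). Its differences by time were 0.16, -0.25, -0.57 and -0.68 at 8, 24, 48 and 96 h, and at 96 h the adjusted p was 0.051. The change of the difference over time was not called for dkk1b (adjusted p = 0.42). In Cy5 this gene was above background on 9 of 12 HgCl2 arrays and on 9 of 12 control arrays. In Cy3 dkk1b was above background on 11 of 24 arrays, and its Cy3 difference was 0.21 (adjusted p = 0.70).

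The brightest probe among the inhibitors, sfrp5, ranged from -0.65 to -0.07 (median -0.26) on HgCl2 arrays and from -0.31 to 0.48 (median -0.13) on control arrays. Its average difference was -0.29 ± 0.10 (SE, adjusted p = 0.033, limma), with a Cy3 difference of -0.01 ± 0.19 (SE). That Cy3 average joined opposite signs, 0.92 at 8 h (adjusted p = 0.11) and -0.74 at 96 h (adjusted p = 0.22, limma). Removal of a single array ended the call for 10 of 24 arrays for sfrp5 and for 6 of 24 for dkk1b. Median centring, the authors' value table and Cy5 alone ended both calls, and plain subtraction of background that of dkk1b. The fourth inhibitor, sfrp2, was above background on 13 arrays only and had an average difference of -0.13 ± 0.15 (SE, adjusted p = 0.55).

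Dishevelled proteins relay the signal inside the cell. The brighter probe, dvl2, ranged from -0.53 to 0.15 (median -0.15) on HgCl2 arrays and from -0.53 to 0.29 (median -0.26) on control arrays. Its average difference of 0.08 ± 0.09 (SE, adjusted p = 0.51, limma) lay within the error. At 96 h dvl2 was 0.30 ± 0.18 higher (SE, adjusted p = 0.28, limma) and not called. Its groups did not overlap there, which held for 36.5% of all probes in either direction. For dvl3a, which is described because it makes up 1 of the 2 calls at 96 h and was picked after its values were seen, the 96 h log2 ratio was -0.15, -0.17 and -0.72 on HgCl2 arrays against -0.02, 0.45 and 0.07 on control arrays. The groups did not overlap, but a single array on each side stood apart. The dvl3a difference at 96 h was -0.51 ± 0.16 (SE, adjusted p = 0.041), beside 0.01 at both 24 h and 48 h. The call was lost without control 96 h replicate 2, control 96 h replicate 3 or HgCl2 96 h replicate 3, and also with median centring, in the authors' value table, with the replicate block and in the 6 arrays of that time alone. The Cy3 difference for dvl3a at 96 h was -0.34 (adjusted p = 0.48).

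In the destruction complex group, gsk3ab was higher and axin2 lower in the average. The kinase gene gsk3ab, an alpha form of Gsk3, had the largest average difference and the lowest adjusted p of the 37 genes. Its log2 ratio at 24 h was 0.19, 0.23 and 0.40 on HgCl2 arrays against -0.36, -0.36 and -0.11 on control arrays. At 48 h gsk3ab was at 0.59, 0.12 and 0.14 on HgCl2 arrays against -0.23, -0.33 and -0.33 on control arrays, and at 96 h at 0.07, 0.18 and 0.47 on HgCl2 arrays against -0.08, -0.19 and -0.20 on control arrays. At 8 h the values were 0.17, -0.02 and 0.18 on HgCl2 arrays against -0.26, -0.28 and -0.02 on control arrays. Over all 24 arrays the HgCl2 values of gsk3ab ran from -0.02 to 0.59 and the control values from -0.36 to -0.02, so that the 2 sets overlapped only at -0.02, with an array of each group at 8 h.

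The gsk3ab difference was 0.29 ± 0.15 at 8 h (SE, adjusted p = 0.43), 0.55 at 24 h (adjusted p = 0.021), 0.58 at 48 h (adjusted p = 0.021) and 0.39 at 96 h (adjusted p = 0.089). In the average it was 0.45 ± 0.08 (adjusted p = 1.1e-04, limma), which is a 1.37-fold higher ratio. The Cy3 difference for gsk3ab was -0.01 ± 0.13 (SE). The Cy5 channel alone gave a difference of 0.39 (adjusted p = 0.040), and the call in the average remained under each of the 34 alternatives run for it. The single-time calls did not. That at 24 h was lost without HgCl2 24 h replicate 3, control 24 h replicate 1 or control 24 h replicate 2 and with median centring, and that at 48 h needed HgCl2 48 h replicate 1 and control 48 h replicate 2. Both were lost in Cy5 alone and in the 6 arrays of their own time. The beta form, gsk3ba, had an average difference of -0.01 ± 0.10 (SE, adjusted p = 0.96), with -0.40 at 48 h and 0.46 at 96 h, where its Cy3 difference was -1.20 (adjusted p = 0.020).

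The regulator gbp encodes a Gsk3-binding protein, known from frog embryos to inhibit Gsk3, and had the brightest probe of this group. At 96 h its log2 ratio was 0.70, 0.99 and 0.88 on HgCl2 arrays against 0.13, 0.40 and 0.18 on control arrays. At 48 h gbp was at 0.08, -0.03 and -0.01 on HgCl2 arrays against 0.46, 0.40 and 0.33 on control arrays. All 3 HgCl2 arrays thus lay below control at 48 h and above it at 96 h. At 8 h the values were 0.53, -0.19 and 0.18 on HgCl2 arrays against 0.42, 0.51 and 0.29 on control arrays, and at 24 h -0.35, -0.20 and -0.07 on HgCl2 arrays against -0.34, -0.30 and -0.16 on control arrays.

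The gbp difference was 0.62 ± 0.16 at 96 h (SE, adjusted p = 0.012), -0.39 at 48 h (adjusted p = 0.13) and 0.02 in the average (adjusted p = 0.90, limma). The test of a change of the HgCl2 difference over time gave gbp an unadjusted p of 0.0010 and an adjusted p of 0.11. Control livers alone differed between times for gbp by an unadjusted p of 0.00095 (adjusted p = 0.15), with the lowest values in the control 24 h group. Over all 37 genes, neither the change of the HgCl2 difference over time nor the drift of the controls was called for any gene, where 0.392% and 0.049% of all probes were called, while 5 genes (13.5%, against 12.8% of all probes) and 2 genes (5.41%, against 9.50% of all probes) had an unadjusted p under 0.05. Cy3 for gbp was 0.84 higher on HgCl2 arrays at 96 h (adjusted p = 0.039), so Cy5 alone gave a larger difference there, 1.37 (adjusted p = 0.0023). The 96 h call for gbp was lost without control 96 h replicate 1 (adjusted p = 0.053).

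The scaffold gene axin2, itself a known target of beta-catenin, had log2 ratios of -0.48, -0.48 and -0.57 on HgCl2 arrays against 0.08, 0.04 and -0.09 on control arrays at 96 h. At 48 h axin2 was at -0.50, -0.27 and -0.15 on HgCl2 arrays against -0.05, -0.12 and -0.12 on control arrays. The groups did not overlap at these times and overlapped at 8 h and 24 h. The difference was -0.52 ± 0.17 at 96 h (SE, adjusted p = 0.051) and -0.27 ± 0.09 in the average (adjusted p = 0.021, limma). The average call for axin2 was lost in the authors' value table, with median centring, without background correction and in Cy5 alone. Its Cy3 intensity was higher on HgCl2 arrays by 0.27 in the average (adjusted p = 0.26) and by 0.996 at 8 h (adjusted p = 0.043). In Cy3 axin2 was above background on 12 of 24 arrays. The other scaffold gene, axin1, had an average difference in the opposite direction, 0.28 ± 0.12 (SE, adjusted p = 0.078).

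Of the beta-catenin genes, ctnnb1 was higher in the average and ctnnb2 was not called. For ctnnb1 the log2 ratio ranged from -0.09 to 0.70 (median 0.25) on HgCl2 arrays and from -0.19 to 0.38 (median 0.02) on control arrays. Its average difference was 0.24 ± 0.09 (SE, adjusted p = 0.039, limma), and removal of a single array ended the call for 14 of 24 arrays. The ctnnb1 call was also lost without background correction, with median centring, in the authors' value table and in Cy5 alone, and its Cy3 difference was -0.06 (adjusted p = 0.80). The ctnnb2 probe was the brightest of all 37 genes, and its log2 ratio ranged from -0.16 to 0.42 (median 0.02) on HgCl2 arrays and from -0.31 to 0.45 (median 0.19) on control arrays, an average difference of -0.13 ± 0.08 (SE, adjusted p = 0.22). The partner ctnnbip1, whose product keeps beta-catenin from Tcf factors, had an average difference of 0.21 ± 0.13 (SE, adjusted p = 0.21).

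All 4 DNA-binding factors had negative average differences, against 49.8% of all probes, and none was called, against 31.5% of all probes. The brightest, lef1, ranged from -0.53 to 0.03 (median -0.19) on HgCl2 arrays and from -0.37 to 0.05 (median -0.07) on control arrays, an average difference of -0.08 ± 0.07 (SE, adjusted p = 0.45, limma). At 96 h its values were -0.32, -0.18 and -0.53 on HgCl2 arrays against -0.08, 0.04 and 0.00 on control arrays, without overlap (difference -0.33, adjusted p = 0.14). The factor with the largest average difference, tcf7l1b, stood at -0.38 ± 0.16 (SE, adjusted p = 0.071), beside a Cy3 intensity 1.04 higher on HgCl2 arrays.

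**Figure D4:**
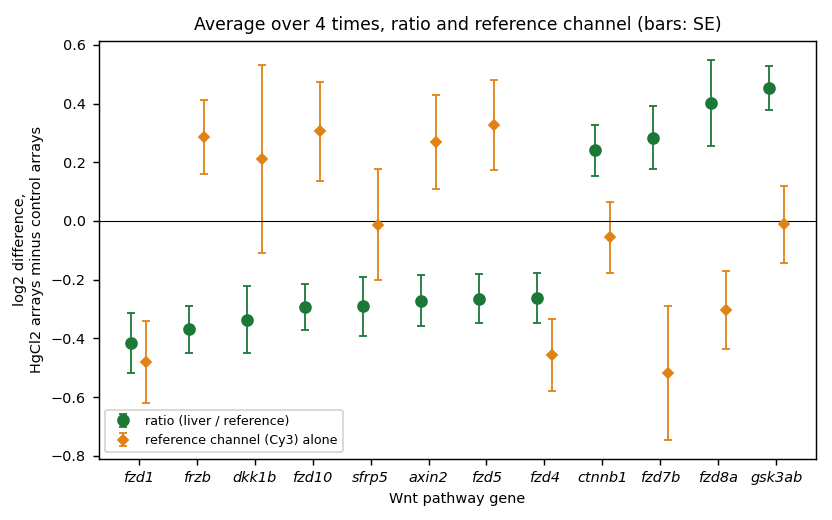
Average log2 difference over the 4 times, HgCl2 arrays minus control arrays, for the 12 genes called in the average (x axis, from the largest fall to the largest rise), in the ratio (green circles) and in the reference channel Cy3 alone (orange diamonds), with standard errors as bars. The Cy3 difference is near 0 for gsk3ab, ctnnb1 and sfrp5, below 0 for fzd7b, fzd1, fzd4 and fzd8a, and above 0 for fzd5, fzd10, frzb, axin2 and dkk1b.

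The 12 genes called in the average fell into different patterns in the single channels. In Cy5 alone, 3 of them were called in the same direction, fzd1 (-0.94), fzd4 (-0.79) and gsk3ab (0.39). For fzd10 (-0.04), axin2 (-0.06), fzd8a (0.01), ctnnb1 (0.13), dkk1b (-0.16), frzb (-0.15) and sfrp5 (-0.34) the Cy5 difference kept its direction and was not called. For fzd5 (0.01) and fzd7b (-0.28) it had the opposite sign and was not called. Of the 12 genes, fzd1 and fzd4 were also called in Cy3. The part of the reference channel in the other calls was not tested.

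Several genes had more than 1 probe, which gives a reading of the same gene at another sequence. Among the 9 such genes there were 11 pairs of probes, of which 6 had average differences of the same sign and 5 of opposite sign. Over the 627 probe pairs of the whole array, 55.0% had the same sign. The log2 ratios of the 11 pairs correlated over 24 arrays by a Pearson's r from -0.33 to 0.43 with a median of -0.12, against a median of 0.11 over all pairs, where the arrays of a group and the reference are shared by both probes.

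For fzd4 both probes were called lower, -0.26 for the probe used and -0.47 for the other (adjusted p = 9.0e-04). Their average Cy3 differences had opposite signs, -0.46 for the probe used (adjusted p = 0.014) and 0.48 for the other (adjusted p = 0.051, limma). At 96 h the other fzd4 probe was also called lower in the ratio (-0.66, adjusted p = 0.029, limma). Its Cy3 was 1.21 higher on HgCl2 arrays at that time (adjusted p = 0.017, limma). For fzd3a the probes opposed each other, with -0.19 for the probe used (adjusted p = 0.075) and 0.66 for the other (adjusted p = 8.5e-05). The other fzd3a probe was also called higher at 24 h (0.89, adjusted p = 0.0095, limma). For fzd2 the dimmer probe was called lower (-0.48, adjusted p = 0.0014) where the probe used, at -0.19, was not. That dimmer probe was also called lower at 96 h (-0.64, adjusted p = 0.044, limma). The other probes of fzd10 (-0.03), fzd5 (-0.05) and fzd8a (-0.02) showed no difference beyond their standard errors of 0.13, 0.09 and 0.12. Of the 4 receptor genes fzd4, fzd5, fzd8a and fzd10 that were called and had another probe, the other probe was therefore called for fzd4 only.

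**Figure D5:**
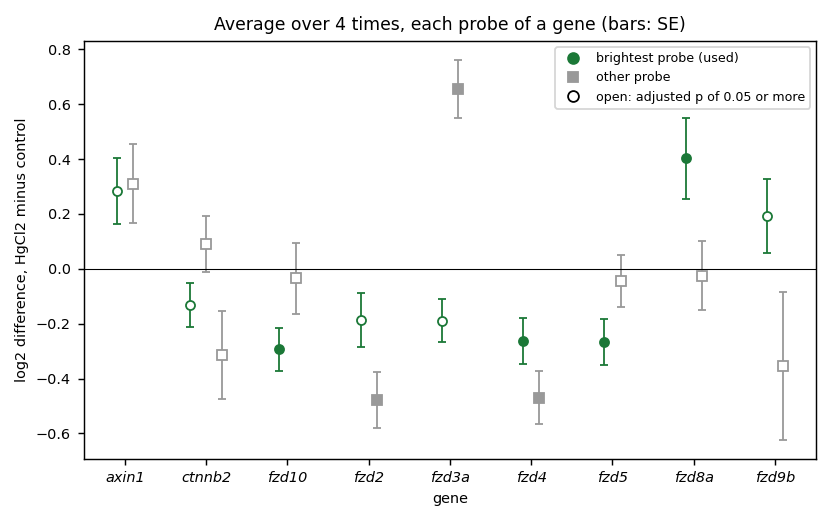
Average log2 difference over the 4 times, HgCl2 minus control, for each probe of the 9 genes with several probes, with standard errors as bars, green circles for the brightest probe of a gene and grey squares for the others, and filled symbols where the adjusted p was under 0.05. Both fzd4 probes lie below 0, and the fzd3a probes lie on opposite sides of it.

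Of 32 other canonical pathway genes on the array, 4 were higher and 3 lower in the average, with a median of 0.02. The higher genes were cul1a (0.55, adjusted p = 2.9e-04) and fbxw11b (0.59, adjusted p = 4.4e-04), parts of the ubiquitin ligase that marks phosphorylated beta-catenin, ppp2r1bb (1.99, adjusted p = 6.2e-04), a scaffold subunit of protein phosphatase 2A, and csnk1a1 (0.35, adjusted p = 0.026), the kinase that primes beta-catenin. The lower genes were csnk2a2a, senp2 and tle5, with differences from -0.48 to -0.31. The genes csnk1a1, senp2 and tle5 are named to complete these counts, after their values were seen. The csnk1a1 probe was above background on 15 of 24 arrays only, and ppp2r1bb had a standard error of 0.79 at a single time. Of 19 genes of the polarity and calcium branches 3 were higher, rac1a (0.93, adjusted p = 6.0e-06), rhoaa (0.74, adjusted p = 0.0017) and rock2b (0.87, adjusted p = 0.0080), which act in the cytoskeleton, and ppp3r1a, a calcineurin subunit, was lower (-0.68, adjusted p = 0.0028). Over all probes 17.7% were higher and 13.8% lower in the average.

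Of 35 known targets of beta-catenin from various vertebrate tissues, 4 were higher and 6 lower in the average, 27 of 35 had a negative difference, and the median was -0.12. Of all probes, 17.7% were higher, 13.8% lower and 49.8% negative in the average, with a median of 0.00. The cell cycle gene ccnd1 was lower (-0.41 ± 0.07, SE, adjusted p = 1.4e-04), also at 24 h and 96 h. In the opposite direction tbxta, a mesoderm factor of the embryo, was higher (2.203 ± 0.37, SE, adjusted p = 1.4e-04), as was birc5b (0.92, adjusted p = 0.0061), which acts in cell division. Of the genes that beta-catenin drives in mammalian liver, 4 were on the array besides axin2, which was lower and is described above. Among these 4, cyp1a was lower (-1.30, adjusted p = 6.1e-06) and glulb (0.68, adjusted p = 0.015) and ahr2 (0.34, adjusted p = 0.0012) were higher, so the list moved in both directions.

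Some marker genes of the liver and of other tissues were also called in the average, where 17.7% of all probes were higher and 13.8% lower. All 7 hepatocyte markers on the array were above background on all 24 arrays, and 4 were higher in HgCl2 livers, although fabp10a, tfa and apoa1b had a median Cy5 intensity at the scanner's limit in both groups. Of 10 genes in the ovary and egg list 7 were higher, among them zp3a.1 (2.85), and 1 was lower, nots (-1.31). Whether nots is read from egg tissue or from liver cells in these samples was not tested. The mean log2 ratio of the list was 0.41 (-0.93 to 2.49) on HgCl2 arrays and -0.72 (-1.30 to 0.39) on control arrays (median and range). The egg marker genes dazl and ddx4 were not called. Of 12 leukocyte markers 6 were higher and 1 lower, of 4 exocrine pancreas markers none was higher and 4 were lower, of 5 red blood cell markers 2 were lower, of 7 bile duct markers 2 were higher and 2 lower, of 8 endothelial and stellate cell markers 1 was higher and 1 lower, and of 4 intestine markers none was called. The part of these shifts in the differences of the Wnt pathway genes was not tested. In pooled whole liver, fewer cells of a type and less RNA per cell cannot be told apart.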

How the data were processed

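Liver RNA (Cy5) and a common reference (Cy3) were measured on 24 spotted oligonucleotide arrays, 3 in each of 8 groups taken from the labels. The intensities are the deposited scanner medians of spot and local background, without normalization by the authors. The log2 values in the authors' deposited table served as an alternative, with column medians from -0.05 to 0.16. On spots bright in both channels they match log2 ratios of background-subtracted means plus a constant per array. The median absolute deviation on those spots was 0.0091 to 0.023 on each array, without a visible trace of the lowess step that the authors' methods state. Dimmer spots were not compared, so the match is not known for them. The direction of the authors' values is Cy5 over Cy3. The number of arrays limits the precision.

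The scanner values were fitted with limma 3.58.1 in R 4.3.3 after normexp correction (offset 50) and loess per array with 172 beta-actin control spots at weight 0, as 8 group means with 16 residual degrees of freedom and Benjamini-Hochberg adjustment over 16340 probes. Of 16512 spots, 6088 have a single gene symbol, 75 several and 10349 none. The model was also run on simulated log ratios with independent noise and with shifts added in the HgCl2 96 h group only. That run held no difference between array sets or in the reference channel, so it cannot show whether such differences affect the calls. The labels only number the replicates of a group, and the paper's methods describe each replicate as livers pooled from a group of fish. Each pool was read on a single array. P-values therefore measure only the spread between pools and between arrays together, and these parts cannot be told apart.

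Genes chosen for description were the 12 members called in any comparison with the lowest p in the average, the brightest of each role and those the study names. Array values at some or all times are given for some of them and range and median for others, and neither is given for fzd7b. Members and lists were chosen with earlier results of these data known. Alternatives covered background correction, normalization, dim probes, the choice of probe, Cy5 alone, the methods' t-test, a replicate block and leaving out each array. Figures were drawn with matplotlib 3.10.9 under Python 3.11.15.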

Additional observations from a re-analysis of the deposited data

How the results depend on the processing

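For the 18 gene results named above, 630 values were computed under alternatives: 500 kept direction and call, 128 lost the call and 2 reversed (Cy5 alone, average: fzd5 0.0090, fzd7b -0.28). The counts of Wnt pathway genes called that moved by more than 1.5 times were as follows. Against main counts of 0, 3, 1 and 2 at 8, 24, 48 and 96 h and 12 in the average, no background correction gave 1 at 24 h, 2 at 48 h, 6 at 96 h and 1 for the change over time (0 before). Median centring in place of loess gave 1 at 96 h and 7 in the average. Cy5 alone gave 6 at 8 h, 3 at 48 h, 10 at 96 h, 8 for the change over time and 6 for controls over time (0 before). The authors' value table gave 1 at 8 h, 1 at 96 h and 1 for the change over time. At 96 h, leaving out dim probes gave 4, counting every member probe 4 and the replicate block 1, and the mean of all probes of a gene gave 3 at 48 h. The 6 arrays of a time alone gave 0 at 24 h and 0 at 48 h. The methods' t-test gave 3, 6, 8 and 8 unadjusted and 0 at 8 h, 0 at 24 h, 0 at 48 h and 1 at 96 h after Benjamini-Hochberg. After that adjustment it ended the calls named at 24 h (gsk3ab, frzb and fzd1), 48 h (gsk3ab) and 96 h (gbp and dvl3a), and unadjusted that of dvl3a. With 3 background standard deviations 13 genes in place of 20 were above background on all arrays. Aquantile after loess leaves ratios unchanged by construction.

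Leaving out single arrays gave 0 to 0 at 8 h, 0 to 3 at 24 h, 0 to 2 at 48 h, 1 to 5 at 96 h, 8 to 12 in the average, 0 to 1 for the change over time (1 without HgCl2 8 h replicate 1) and 0 to 0 for controls. The 24 h count was 0 without control 24 h replicate 1 or 2 and 1 without HgCl2 24 h replicate 2. The 48 h count was 0 without control 48 h replicate 2 or HgCl2 48 h replicate 1 and 2 without HgCl2 24 h replicate 2 or HgCl2 96 h replicate 3. The 96 h count was 1 without control 96 h replicate 2 or 3 or HgCl2 96 h replicate 3, 4 without HgCl2 24 h replicate 1 or HgCl2 48 h replicate 1, and 5 without HgCl2 96 h replicate 2. Replicate numbers did not pair arrays: same-numbered arrays correlated in their deviations by a median r of 0.04 (-0.03 to 0.19), and the replicate block gave 11 genes in the average. The causes of these changes were not tested. In Cy5, background intensity limits wnt4, wnt4b, fzd7b and sfrp2. In Cy3 other genes were also often not above background, among them axin2 (above on 12 of 24 arrays) and dkk1b (11 of 24).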
